A study of Mus musculus with 12 samples.

Results

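The BCL2 family was examined through 10 genes: the anti-apoptotic members Bcl2, Bcl2l1 and Mcl1, the effectors Bax and Bak1, and the BH3-only members Bid, Bcl2l11, Bbc3, Bad and Pmaip1. They were found as the non-control probes of a whole-genome Agilent mouse array that carry one of these gene names. This gave 19 probes on 46 spots, out of 41174 non-control probes for 27670 genes. Expression was measured in samples labelled as Leydig cells, the steroid-producing interstitial cells of the testis. They had been cut by laser from frozen sections of the right testis of single mice. Markers of other testis cell types were also detected in them, as given below. All animals were C57BL/6J males, 21 weeks old. DEHP mice had been gavaged daily for 21 days with the plasticiser di-(2-ethylhexyl) phthalate dissolved in corn oil (daily dose, 200 mg per kg), and vehicle mice had received the oil only. Arrays of 2 DEHP mice (numbered 1 and 4) and 3 vehicle mice (numbered 1, 2 and 4) were used. Every pairing of a DEHP mouse with a vehicle mouse was hybridised on a pair of arrays with the Cy3 and Cy5 dyes exchanged, so that the 12 arrays repeat 5 animals.

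BCL2 family proteins control the permeability of the outer mitochondrial membrane. Anti-apoptotic members bind and restrain their pro-apoptotic relatives, the effectors form the pores through which cytochrome c leaves the mitochondrion, and BH3-only proteins carry signals of stress or growth factor loss to both. In the testis the family is best known for setting the survival of germ cells. Much of its regulation lies in protein stability, cleavage and location, which an mRNA array does not measure.

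Judged by their reading frame alone, 5 of the 19 probes read as coding sequence of their gene; no annotation of this assembly was used, and the other 14 probes were not placed in exons or untranslated regions. These 5 are shown because they include the only Bax probe and a Bcl2l11 probe that gave other values than the probe used to test the gene. Each is 60 bases long, is written 5′ to 3′ as deposited, and is placed on assembly mm7. The Bcl2l11 probe (chr2:127888010-127899105, plus strand) spans 11096 bases of genome and so crosses at least 1 intron; its capitals mark the end of the BH3 motif, by which these proteins bind their relatives. Capitals in the Bak1 probe (chr17:25205887-25205946, minus strand) and in the Bcl2 probe (chr1:106612249-106612308, minus strand) mark bases of the BH1 motif, part of the groove that receives a BH3 helix. The Bax probe (chr7:41641827-41641982, minus strand) spans 156 bases of genome, and the Bcl2l1 probe is at chr2:152570306-152570365 on the minus strand; neither has capitals.
Bcl2l11: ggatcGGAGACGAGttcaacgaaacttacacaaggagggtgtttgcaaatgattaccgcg
Bak1: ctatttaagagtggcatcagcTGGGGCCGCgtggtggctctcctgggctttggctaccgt
Bcl2: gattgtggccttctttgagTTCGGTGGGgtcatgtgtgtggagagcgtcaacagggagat
Bax: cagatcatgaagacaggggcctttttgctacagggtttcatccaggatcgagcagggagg
Bcl2l1: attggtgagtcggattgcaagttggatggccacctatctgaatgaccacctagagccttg

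The capitals were placed by a search for GGNGANGAN in the Bcl2l11 probe, TGGGGNNGN in the Bak1 probe and TTNGGNGGN in the Bcl2 probe, where N is any base. On either strand these letters occur in 2.5%, 1.8% and 1.6% of all 41174 probes, so a match alone marks no protein motif. Of these 5 probes, only that of Bcl2l11 was well above background often enough to pass the filter.

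The filter used the share of a probe's spots well above local background, as the scanner software judged it, averaged over a mouse's arrays. A probe passed where this share was 50% or more for 2 mice or more. In all, 10 member probes passed and gave values for 7 of the 10 genes. Among the anti-apoptotic members 5 of 8 probes passed, among the BH3-only members 5 of 8, and among the effectors 0 of 3. Bax, which can form the mitochondrial pore, has 1 probe printed on 10 spots. The share of these spots well above background was 5% for DEHP mouse 1, 1.67% for DEHP mouse 4, 5% for vehicle mouse 1 and 0% for vehicle mice 2 and 4. The Bak1 BH1 probe, of the other pore former, was above background on 50% of the arrays of vehicle mouse 4 and 16.7% of those of DEHP mouse 1, and on 0% in the other 3 mice. The other Bak1 probe was not well above background on any array. Bad, a BH3-only protein held inactive by survival signalling, has 2 probes. They lie on opposite strands of chromosome 19 and 9 kb apart, and exceeded background on 16.7% of the arrays of DEHP mouse 4 for 1 of them and on no other array. No fold is given for Bax, Bak1 or Bad, since both groups lay close to background. Most arrays of either group thus gave no measured level of the pore formers.

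**Figure D1:**
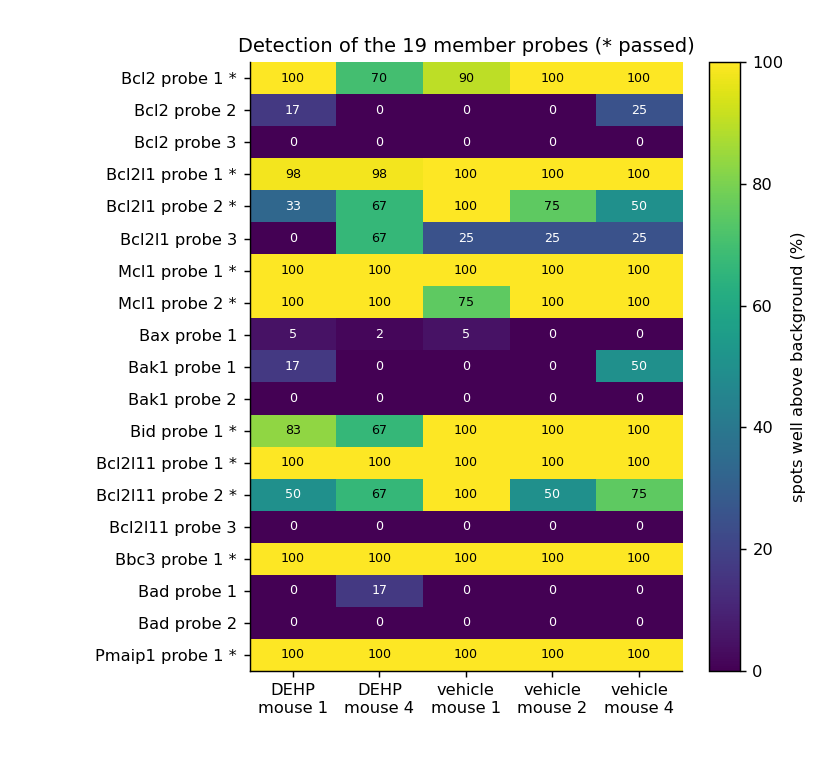
Percentage of spots well above background for each of the 19 member probes (rows) in each of the 5 mice (columns); an asterisk marks the 10 probes that passed. The rows of Bax, Bak1 and Bad are near 0 in most mice, while the first probes of Bcl2l1, Mcl1, Bcl2l11, Bbc3 and Pmaip1 are near or at 100.

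Levels below are log2 values centred on the average of the 5 mice, and differences are log2 DEHP minus vehicle. None of the 7 tested members passed the threshold of an adjusted p under 0.05 between DEHP and vehicle mice. In limma's test on the 5 mouse values (Benjamini-Hochberg over 15825 genes), 0% of all genes passed, every adjusted p was 1, and 136 genes but no member had an unadjusted p under 0.05. All 7 differences were below 0, with a median of -0.24, where 51.6% of all genes were below 0 with a median of -0.01. In 3 of the 7 (Bcl2l11, Bbc3 and Pmaip1, all BH3-only), both DEHP mice lay below all 3 vehicle mice, and such separation in either direction was found in 9.17% of all genes. The 7 genes share their 5 extracts, so that their common sign is not 7 independent observations.

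**Figure D2:**
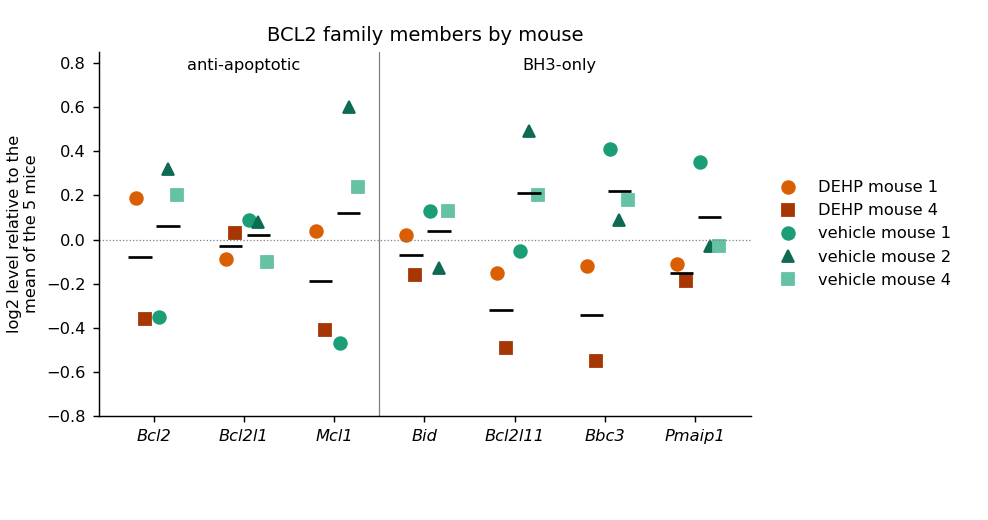
Log2 level of the 7 tested members by mouse, centred on the average of the 5 mice; black bars are the means of the 2 DEHP and the 3 vehicle mice. Bcl2l11, Bbc3 and Pmaip1 show no overlap between groups, and in Bcl2 and Mcl1 vehicle mouse 1 lies beside DEHP mouse 4.

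Bbc3 encodes PUMA, a BH3-only protein that binds all anti-apoptotic members and is a transcriptional target of p53. DEHP mouse 1 had a level of -0.12 and DEHP mouse 4 a level of -0.55. Vehicle mice 1, 2 and 4 had 0.41, 0.09 and 0.18. Both DEHP mice were below the lowest vehicle mouse. The difference was -0.56 ± 0.23 (SE, n = 2 and 3 mice), equal to 67.8% of the vehicle level, with a 95% interval from -1.13 to 0.01 and an adjusted p of 1 (limma). All 12 arrays had a log ratio of DEHP over vehicle below 0. They ran from -0.56 to -0.13 for DEHP mouse 1 and from -1.07 to -0.61 for DEHP mouse 4. Exchanging the dyes moved the ratio of a pair of mice by at most 0.16. The 3 slides, which each held arrays of both groups, gave -0.53, -0.64 and -0.51 on their own. Slides 1 and 2 held vehicle mice 1 and 2, with the DEHP RNA in Cy5 on slide 1 and in Cy3 on slide 2. Slide 3 held only vehicle mouse 4, with both dye orders. A difference between slides thus cannot be told apart from dye and vehicle mouse. The smaller distance came from DEHP mouse 1: without DEHP mouse 4 the difference was -0.35, and without DEHP mouse 1 it was -0.78.

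Bcl2l11 encodes BIM, a BH3-only protein that is induced by loss of growth factors and restrained by survival kinases. The tested probe (chr2:127903168-127903227) gave -0.15 and -0.49 for DEHP mice 1 and 4. Vehicle mice 1, 2 and 4 were at -0.05, 0.49 and 0.20. The groups did not overlap, but DEHP mouse 1 and vehicle mouse 1 were close. The difference was -0.53 ± 0.25 (SE, n = 2 and 3 mice), equal to 69.3% of the vehicle level, with a 95% interval from -1.15 to 0.08 and an adjusted p of 1 (limma). Again all 12 arrays were below 0, from -0.07 to -1.16, and the slides gave -0.42, -0.66 and -0.52. The probe over the BH3 motif, 15.2 kb upstream and printed above, gave a different order. Its values were -0.07 and 0.12 in the DEHP mice and 0.30, -0.21 and -0.14 in vehicle mice 1, 2 and 4, a difference of 0.04. With the mean of both passing probes the difference of Bcl2l11 was -0.25. This probe was dimmer, and above background on 50% of the arrays of DEHP mouse 1 and of vehicle mouse 2. The remaining Bcl2l11 probe was not well above background on any array.

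**Figure D3:**
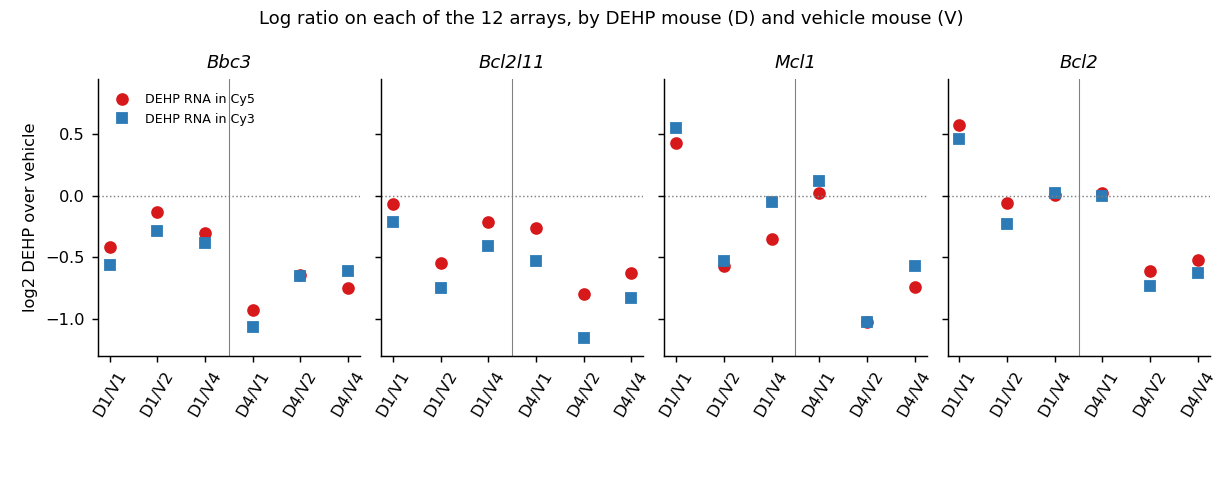
Log2 ratio of DEHP over vehicle on each of the 12 arrays for Bbc3, Bcl2l11, Mcl1 and Bcl2, by the pair of mice (D, DEHP mouse; V, vehicle mouse) and the dye that carried the DEHP RNA. Bbc3 and Bcl2l11 are below 0 on every array, whereas Mcl1 is above 0 on the 4 arrays against vehicle mouse 1 and below 0 on the other 8.

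Pmaip1 encodes NOXA, a BH3-only protein that binds mainly the Mcl1 protein. DEHP mice 1 and 4 stood at -0.11 and -0.19, and vehicle mice 1, 2 and 4 at 0.35, -0.03 and -0.03. The groups did not overlap, although vehicle mice 2 and 4 were nearer to the DEHP mice than to vehicle mouse 1. The difference was -0.24 ± 0.22 (SE, n = 2 and 3 mice; 95% interval -0.78 to 0.29), and without vehicle mouse 1 it was -0.12. The log ratio was above 0 on 2 of 12 arrays.

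Bid links death receptors to mitochondria once caspase-8 cleaves it. Its mRNA stood at 0.02 and -0.16 for DEHP mice 1 and 4, with 0.13, -0.13 and 0.13 for vehicle mice 1, 2 and 4. These ranges overlap. The difference was -0.11 ± 0.20 (SE, n = 2 and 3 mice; 95% interval -0.61 to 0.39). The probe was dim, above background on 66.7% of the arrays of DEHP mouse 4, and its difference in the scanner software's own log ratios was -0.94.

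Mcl1, a short-lived anti-apoptotic protein, varied most between vehicle mice among the 7 tested members. Its brighter probe gave 0.04 and -0.41 for DEHP mice 1 and 4, and -0.47, 0.60 and 0.24 for vehicle mice 1, 2 and 4. Vehicle mouse 1 was below both DEHP mice and vehicle mouse 2 was above all others. The difference was -0.31 ± 0.37 (SE, n = 2 and 3 mice; 95% interval -1.22 to 0.59). It was -0.61 without vehicle mouse 1 and -0.07 without vehicle mouse 2. The other Mcl1 probe, 1.3 kb upstream and also passing, gave -0.19 and 0.20 in the DEHP mice and -0.37, 0.01 and 0.35 in vehicle mice 1, 2 and 4. Its difference was 0.01, and it placed DEHP mouse 4 above DEHP mouse 1, in the opposite order to the brighter probe.

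Bcl2, the founding anti-apoptotic member, had levels of 0.19 and -0.36 for DEHP mice 1 and 4, and of -0.35, 0.32 and 0.20 for vehicle mice 1, 2 and 4. DEHP mouse 4 and vehicle mouse 1 shared a low level, and the other 3 mice a high one. The difference was -0.14 ± 0.30 (SE, n = 2 and 3 mice; 95% interval -0.88 to 0.61). Without DEHP mouse 4 it was 0.13. The tested probe (chr1:106438098-106438157) lies 174.2 kb from the BH1 probe printed above, which exceeded background on 16.7% of the arrays of DEHP mouse 1, 25% of those of vehicle mouse 4 and 0% in the other mice.

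Bcl2l1, which encodes the anti-apoptotic protein BCL-XL, was the most even member. DEHP mice 1 and 4 lay at -0.09 and 0.03, within the values of 0.09, 0.08 and -0.10 of vehicle mice 1, 2 and 4. The difference was -0.05 ± 0.19 (SE, n = 2 and 3 mice), and its 95% interval from -0.53 to 0.42 covers a change of either sign. The sign itself was not stable: slides 1, 2 and 3 gave 0.02, -0.25 and 0.07. These slides differed in dye or vehicle mouse, and the dye effect of this probe (red over green) was 0.15. The other passing probe, 49.1 kb upstream, had a difference of -0.20 and its highest value, 0.39, in vehicle mouse 1. The probe printed above did not pass.

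**Figure D4:**
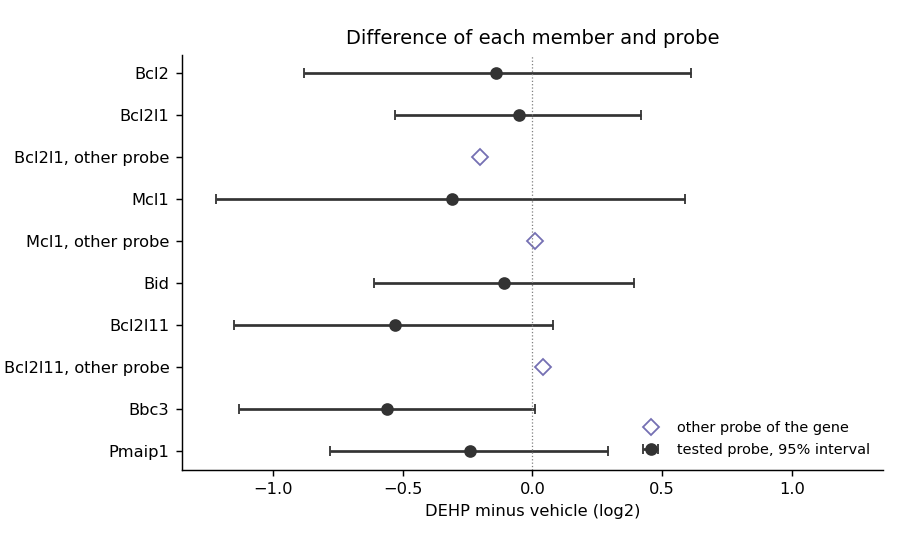
Log2 difference of DEHP minus vehicle for the tested probe of each member (black, with its 95% interval from limma on 2 and 3 mice) and for other passing probes of the same gene (open diamonds). Every interval includes 0, and the other probes of Mcl1 and Bcl2l11 lie at 0.01 and 0.04, away from the tested probes at -0.31 and -0.53.

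The spots printed 10 times show how far single spots of a probe differ within an array. Within an array the log ratios of the 10 Bcl2 spots had a median SD of 0.09, those of Bcl2l1 0.12 and those of Bax 0.10. Taken spot by spot, the DEHP minus vehicle difference of Bcl2 ran from -0.17 to -0.08 over the 9 spots that gave one, and that of Bcl2l1 from -0.06 to -0.01 over 10 spots. For Bcl2 the SD within an array was below that over the 3 vehicle mice, 0.36. For Bcl2l1 it was not: the SD was 0.11 over the 3 vehicle mice and 0.09 over the 2 DEHP mice. The SD within an array is that of single spots, whereas mouse values are averaged over spots and arrays. The Bcl2l1 values therefore do not show that its mice differed only by spot error. Spots of an array share their extraction, amplification and hybridisation, so their spread leaves out the error of these steps.

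Single mice of the same group were then compared on the 12 array log ratios of the tested probes. This test compares extracts, not conditions, and its error is that of repeated arrays. Between DEHP mice 4 and 1, 5 of 7 members passed an adjusted p under 0.05 (limma), beside 77.4% of all genes. Bcl2, Mcl1, Bcl2l11 and Bbc3 were lower in DEHP mouse 4, by differences of -0.54 ± 0.04, -0.45 ± 0.04, -0.33 ± 0.04 and -0.43 ± 0.05 (SE from 12 arrays). Bcl2l1 was higher there, by 0.12 ± 0.04 (adjusted p = 0.00795, limma). Between vehicle mouse 1 and the mean of vehicle mice 2 and 4, 6 of 7 members passed, beside 72.1% of all genes. Mcl1, Bcl2 and Bcl2l11 were lower in vehicle mouse 1, by -0.89 ± 0.05, -0.61 ± 0.04 and -0.40 ± 0.04, while Pmaip1, Bbc3 and Bcl2l1 were higher, by 0.39 ± 0.10, 0.28 ± 0.05 and 0.10 ± 0.04. Both shares of members are near those of all genes. For the tested probes of Bcl2, Mcl1, Bcl2l1 and Bid both differences inside a group exceeded in size the difference between groups. For Pmaip1 that of vehicle mouse 1 did. For Bid they were -0.18 ± 0.08 and 0.13 ± 0.08, neither past the threshold. For the tested probes of Bcl2l11 and Bbc3 both were smaller than the difference between groups. The vehicle comparison averages mice 2 and 4, however. Taken singly, vehicle mice 1 and 2 had -0.05 and 0.49 for Bcl2l11, about as far apart as the groups (-0.53). The other passing Bcl2l11 probe had 0.19 and 0.48 inside the groups, of opposite sign to the tested probe, beside 0.04 between them. That of Mcl1 had 0.39 and -0.54, so it was higher in DEHP mouse 4. That of Bcl2l1 had 0.01 and 0.46, beside -0.20 between groups.

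Cell type markers differed between the same mice. All 10 Leydig cell markers passed the filter, with Insl3, Star and Cyp11a1 above background on every array. DEHP mouse 1 had a median marker level of 0.67 and DEHP mouse 4 one of -0.73, and vehicle mice 1, 2 and 4 had -0.46, 0.22 and 0.40. The median difference was -0.19, with 8 of 10 markers below 0. DEHP mouse 4 and vehicle mouse 1, in which the tested probes of Bcl2 and Mcl1 were lowest, were also the mice with the lowest Leydig cell markers. The medians of macrophage (-0.47 and -0.43), myoid (-0.91 and -0.29) and endothelial markers (-0.26 and -0.45) were lowest in these mice too. The other passing Mcl1 probe did not follow this order, with 0.20 in DEHP mouse 4. Spermatid markers had their highest medians in the same mice, 0.78 and 0.18, against 0.03 in DEHP mouse 1 and -0.70 and -0.42 in vehicle mice 2 and 4. All 12 spermatid markers had a difference above 0, from 0.18 to 1.15 with a median of 0.60. None had an adjusted p under 0.05 (limma), and 2 had an unadjusted p below it. Mean log2 intensity ran from 8.5 (Odf1) to 17.4 (Prm2) over the spermatid markers. Over the Leydig cell markers it ran from 6.3 (Nr5a1) to 16.3 (Insl3). The samples thus gave strong signal for germ cell genes too, and the member values are not those of Leydig cells alone. Sertoli cell markers were at -0.22 and -0.20 in the DEHP mice and 0.55, -0.07 and 0.07 in vehicle mice 1, 2 and 4, and 9 of 9 had a difference below 0, with a median of -0.32. Their median was highest in vehicle mouse 1, as were Bbc3 and Pmaip1. Bcl2l1 was nearly level in vehicle mice 1 (0.09) and 2 (0.08), and Bid shared its highest value between vehicle mice 1 and 4. Of the 9 Sertoli cell markers, 3 were lower in vehicle mouse 1 than the mean of vehicle mice 2 and 4. Myoid markers had a median difference of -0.86 (6 of 7 below 0), with their highest median, 0.96, in vehicle mouse 2. The tested probes of Mcl1, Bcl2l11 and Bcl2 were also highest in that mouse. The other passing probe of Mcl1 was highest in vehicle mouse 4 (0.35), and that of Bcl2l11 was lowest in vehicle mouse 2 (-0.21). Macrophage markers had a median difference of -0.11 (6 of 10 below 0), endothelial markers -0.11 (6 of 7) and spermatocyte markers -0.04 (4 of 7). Like the spermatid medians, the spermatocyte medians were highest in DEHP mouse 4 (0.19) and vehicle mouse 1 (0.25). They were -0.26 in DEHP mouse 1, and 0.00 and -0.05 in vehicle mice 2 and 4. The part of this cell make-up in the values of the members was not tested. In such bulk RNA, fewer cells of a type and less RNA per cell cannot be told apart.

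**Figure D5:**
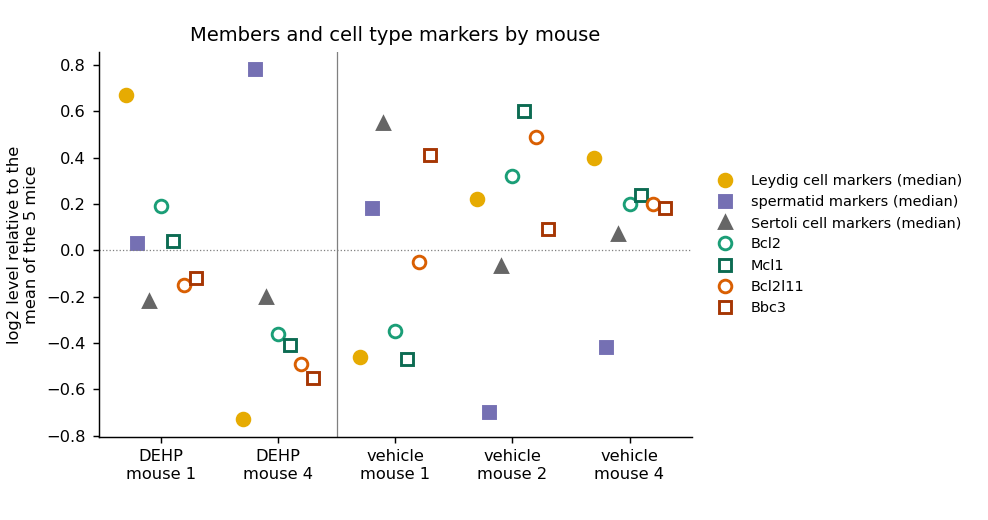
Log2 level by mouse, centred on the average of the 5 mice, of Bcl2, Mcl1, Bcl2l11 and Bbc3 (open symbols) and the medians of Leydig cell, spermatid and Sertoli cell markers (filled symbols). The Leydig cell medians of DEHP mouse 4 (-0.73) and vehicle mouse 1 (-0.46) are the lowest, as are the values of the tested probes of Bcl2 and Mcl1 in these mice. Macrophage, myoid and endothelial medians, not drawn, were also lowest in these mice.

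For 7 pairs of members of opposite role, ratios were formed within each mouse. These pairs were picked without a stated rule, and other possible pairs were left out. In 5 the difference was below 0, all with Bbc3 or Bcl2l11, the members of lowest difference, as numerator. In 2 it was above 0. The count thus follows in part from the choice of pairs. Bbc3 relative to Mcl1 was -0.16 and -0.14 in the DEHP mice and 0.88, -0.51 and -0.06 in vehicle mice 1, 2 and 4, so that the groups overlapped. Bcl2l11 relative to Bcl2 was -0.34 and -0.13 in the DEHP mice and 0.30, 0.17 and 0.01 in vehicle mice 1, 2 and 4, with no overlap and a difference of -0.40. Bbc3 relative to Bcl2l1 was -0.03 and -0.58 in the DEHP mice against 0.32, 0.01 and 0.28, with a difference of -0.51. The differences were -0.25 for Bbc3 over Mcl1, -0.42 for Bbc3 over Bcl2 and -0.22 for Bcl2l11 over Mcl1. They were above 0 for Pmaip1 over Mcl1 (0.07) and for Bid over Mcl1 (0.20). These ratios reuse the member values above, were not tested, and are differences of changes in mRNA, not ratios of protein. They take the tested probes alone. The other passing probes of Bcl2l11 and Mcl1, at differences of 0.04 and 0.01, were not put into a ratio. The signs and the separation of groups given here therefore hold for the tested probes only.

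The wider pathway was followed through 3 lists, none of which had a gene past the threshold. Among other BCL2 family genes 12 of 20 were tested, 4 above and 8 below 0, with a median of -0.09 and no gene whose groups were separate. Bnip3l, a mitophagy receptor, had the lowest p, at a difference of -0.44 ± 0.25, followed by Bok, a pore-forming relative of Bax and Bak1, at -0.48 ± 0.30 (SE, n = 2 and 3 mice). Among genes of the apoptosome and caspase activation, 19 of 23 were tested, 2 above and 17 below 0, with a median of -0.10. The executioner caspase Casp6 was at -0.54 ± 0.30 and the caspase inhibitor family member Birc2 at 0.52 ± 0.32. Of this list 14 genes were lower and 3 higher in DEHP mouse 4 than in DEHP mouse 1, and the same numbers held for vehicle mouse 1 against vehicle mice 2 and 4 (limma on 12 arrays, adjusted p under 0.05). Of all 15825 genes, 6503 were lower and 5747 higher in the first comparison, and 6049 lower and 5364 higher in the other. Among regulators of the family 28 of 31 were tested, 19 above and 9 below 0, with a median of 0.11. Fbxw7, whose ubiquitin ligase marks the Mcl1 protein for degradation, was at 0.42 ± 0.19, with 0.17 and 0.34 in the DEHP mice and -0.23, -0.04 and -0.24 in vehicle mice 1, 2 and 4. Stat3, a transcription factor that acts on Mcl1 and Bcl2l1, was at 0.76 ± 0.35, with 0.45 and 0.47 in the DEHP mice and -0.88, 0.24 and -0.27 in the vehicle mice. In this list the groups were separate for 4 of 28 genes, 3 higher in DEHP mice (Fbxw7, Stat3 and Trp63) and 1 lower (Rela), beside 9.17% of all genes. Trp63 and Rela are named here after their values were seen. All 4 had an adjusted p of 1 (limma). For the members of lowest p, the nearest genes by root-mean-square distance over the 5 mouse values were Stambp (0.05) and Ddx39a (0.06) for Bbc3, Cttnbp2 (0.04) and Rimkla (0.05) for Bcl2l11, and Stk16 and Commd3 (both 0.03) for Pmaip1.

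The authors' deposited table of log2 ratios holds all 7 tested members, turned as DEHP over vehicle. Values for each mouse computed from it gave differences of -0.69 for Bbc3, -0.65 for Bcl2l11, -0.47 for Pmaip1, -0.23 for Bcl2, -0.21 for Bid, -0.12 for Bcl2l1 and -0.05 for Mcl1. Bbc3 and Bcl2l11 were again the lowest. The Mcl1 value rests on its dimmer probe, since the brighter one gave no full set of mouse values there, and it again placed DEHP mouse 4 (0.33) above DEHP mouse 1 (-0.39). Bbc3 and Bid were given on 9 of the 12 arrays.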

How the data were processed

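RNA of laser-captured cells was amplified for 2 rounds before labelling, per the labels' protocols. The labels give 4 mice per group; those without an array here were not analysed here. The deposited scanner files hold spot intensity and local background intensity per channel, written by Feature Extraction (version 9.5.1.1 per the file headers), and flags of 0 or 1. They also hold a deposited log10 ratio of red over green, computed by the software per the file headers. The deposited series table holds the authors' log2 ratios of 13669 spots. Its identifiers matched the running number of the spot; its columns then correlated with the scanner's ratios at r = 0.915 to 0.993 when read as DEHP over vehicle, with medians from -0.06 to 0.00. How it was normalized and filtered is not given in the sources used here. The tool limma is listed in the submitters' processing notes.

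Here, in R 4.3.3 with limma 3.58.1, intensities were corrected by normexp (offset 50) and loess within arrays, control spots at weight 0. Control spots and outlier-marked spots (0.332% to 0.604% per array) were dropped and spots of a probe averaged. Between 35.5% and 54.4% of spots per channel were well above background. Least squares on 12 log ratios gave 5 mouse values and a dye effect. Each gene is its brightest passing probe. Groups were compared with limma's lmFit and eBayes over the 5 mice (residual degrees of freedom, 3), single mice on the 12 arrays, with Benjamini-Hochberg adjustment at 0.05; every adjusted p is from limma. The offset compresses differences of dim probes. The number of arrays and mice limits the precision. Genes were named by RefSeq accession, current symbol, older symbol or the file's name. Positions are those of the files (mm7). The functions were tested on simulated data.

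The members and lists were chosen with earlier results of these data known. Named genes are all members, the 2 of lowest p per list where none passed, the 2 nearest genes of the 3 members of lowest p, and fixed markers where a result turns on them. Alternatives changed the background, normalization, filter, probes, replication unit, dye, slide, pairing, mice and source table.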

Additional observations from a re-analysis of the deposited data

How the results depend on the processing

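No member passed the threshold under any alternative with a test but the 12 arrays taken as independent, which ignores that they repeat 5 mice; there 2 members passed, Bbc3 (-0.56) and Bcl2l11 (-0.53), with 2123 genes in all. Bbc3, Bcl2l11, Pmaip1, Mcl1 and Bid stayed below 0 in every alternative, with ranges from -0.78 to -0.35, -0.71 to -0.25, -0.52 to -0.11, -0.61 to -0.05 and -0.94 to -0.02. No alternative took the other passing probe alone in the main processing, where it was above 0 for Mcl1 (0.01) and Bcl2l11 (0.04). The -0.05 of Mcl1 came from its dimmer probe in the authors' table. Bcl2l1 changed sign on slide 1 alone (0.02), on slide 3 alone (0.07) and without DEHP mouse 1 (0.01), and Bcl2 without DEHP mouse 4 (0.13). The median of the members, -0.24, was -0.52 with the scanner's log ratios, -0.15 with the mean of probes, -0.13 with no filter, and -0.41 to -0.11 when each mouse was left out. The number of members above 0 was 2 with no filter (Bax and Bad, both near background), 1 on slide 1 alone, 1 on slide 3 alone, and 0 to 1 when each mouse was left out. With the mean of probes 2 members, in place of 5, differed between the DEHP mice. The cause of these shifts was not tested. Those between slides cannot be told apart from dye and vehicle mouse. In the mice numbered 1 and 4 alone, a replicate block on the number gave a median of -0.20 with 0 members and 0 of 15825 genes past the threshold (14 at an unadjusted p under 0.05), and the same mice without the block, an alternative chosen after seeing the data, gave the same median and 0 members. Deviations of same-numbered mice did not go together (r = -0.73 and -0.56 across genes). The deviations of the 2 DEHP mice are equal and opposite by construction, so the 2 correlations are not independent and cannot exclude a pairing. Fits without a mouse assume that a lone DEHP mouse varies like the vehicle mice. Low signal over background limits Bax, Bak1 and Bad.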
